A study of Homo sapiens with 36 samples.

Results

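HEL is a human erythroleukemia cell line, with fetal globin and platelet lineage genes active in the same cells. Its 9 libraries in this series (of 36 in all) carry bio rep numbers, and the 3 libraries labelled bio rep 1 were compared with the 6 labelled bio rep 2 or 3. In each bio rep, 1 library came from cells electroporated with a non-targeting siRNA pool, 1 from cells given siTAL1 pool 1 and 1 from cells given siTAL1 pool 2, so every siRNA group has 1 library on the bio rep 1 side and 2 on the other. The siRNA pools are mixtures of siRNAs, and the siTAL1 pools are directed at TAL1, a transcription factor of blood cells. All 9 libraries were made from polyA RNA extracted with Trizol, with the same library kit at the same provider. The labels do not say what libraries of 1 bio rep number shared (a thaw, a day, an electroporation or a sequencing run), nor that the libraries came from separate cultures. The p-values below therefore measure the spread between these libraries, with only 1 bio rep on the side of bio rep 1.

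Many of the genes described here belong to stress and nutrient programs. The unfolded protein response matches the chaperones of the endoplasmic reticulum (ER) to the load of proteins folding there: ATF6 and XBP1 act on promoter elements called ERSE and ERSE-II, and HSF1 does the same for cytosolic chaperones through heat shock elements (HSE). The integrated stress response raises ATF4 protein when amino acids run short, when the ER is stressed or when heme is low, and ATF4 acts on genes of amino acid uptake, amino acid synthesis and tRNA charging through CARE elements. HIF factors raise glycolytic and mitophagy genes under low oxygen, SREBP2 raises sterol synthesis when membrane cholesterol is low, and the EGR, FOS and JUN families are immediate early genes that respond within a short time to serum, growth factors or handling.

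The depth of the 9 libraries ran from 15869619 to 27029836 counts, and the bio rep 1 library was the deepest of its siRNA group in each case, at 27029836, 22801297 and 25381916 counts (non-targeting, pool 1, pool 2). Despite that depth, fewer genes had a count in bio rep 1 (23386 to 23741) than in bio reps 2 and 3 (23639 to 24032), and the part of the counts from mitochondrial genes was 4.85 to 4.95% against 4.98 to 5.65%. Thinned to the smallest total, the libraries gave 4652 genes past the threshold in place of the 4896 given below; the part of these shares in the differences was not tested. CPM below is a gene's count scaled to a common library total after TMM normalisation. On the first principal component of log2 CPM, with 25.0% of the variance, bio rep 1 lay at -44.4, -29.6 and -22.2 and the other 6 libraries between 2.6 and 29.5. The second component, with 19.5%, set siTAL1 pool 1 apart from the other groups.

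**Figure D1:**
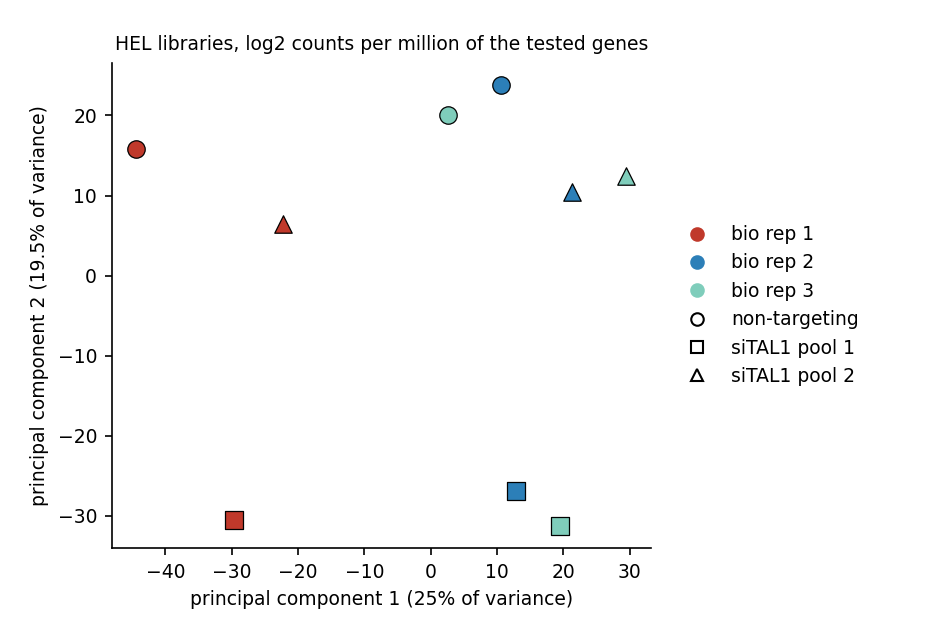
The 9 HEL libraries on the first 2 principal components of log2 CPM (x axis 25.0% and y axis 19.5% of the variance), coloured by bio rep and shaped by siRNA group. The 3 bio rep 1 libraries lie at -44.4 to -22.2 on the x axis and the other 6 at 2.6 to 29.5.

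TAL1, the target of the siRNA pools, checks the labels. In the order non-targeting, pool 1, pool 2, TAL1 was at 439, 165 and 180 CPM in bio rep 1, at 469, 191 and 190 in bio rep 2 and at 491, 182 and 195 in bio rep 3. The knockdown was thus present in all 3 bio reps, and bio rep 1 was the lowest library of each siRNA group by a small margin, with a log2 difference of -0.13 ± 0.05 (SE; adjusted p = 0.027 by edgeR's quasi-likelihood test, 3 libraries against 6 with the siRNA group as a term; negative values are lower in bio rep 1). That call ended without 1 of 4 single libraries (adjusted p = 0.125 without the bio rep 1 non-targeting library, 0.11 without the bio rep 1 pool 1 library, 0.0729 without the bio rep 2 pool 1 library and 0.0687 without the bio rep 3 non-targeting library). The TAL1 call also ended without bio rep 2 (edgeR adjusted p = 0.198), without bio rep 3 (0.0579) and with no low-count filter (0.142). It ended as well with no siRNA group term (0.907). Some HEL markers were present throughout. The fetal globin HBG2 ran from 883 to 2412 CPM and the platelet integrin ITGA2B from 779 to 1185. The erythroid factor GATA1 ran from 68.6 to 115 CPM. Other erythroid and platelet markers were near 0 or absent. AHSP, HBM, SLC4A1 and F13A1 reached at most 0.219 CPM in any library, and ICAM4, SLC14A1 and GP1BB had no count. Several defining markers of other cell types were near 0: CD3D, CD3E, ELANE, MPO, COL1A2, DCN, KRT5 and CDH1 reached at most 0.133 CPM in any library.

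Bio rep 1 differed from bio reps 2 and 3 in a large part of the transcriptome, and bio reps 2 and 3 did not separate from each other. Of 57820 genes in the table, 16688 passed a filter on low counts and were tested, and 4896 of these (29.3%) passed an adjusted p of 0.05, with 2527 higher in bio rep 1 (15.1%) and 2369 lower (14.2%); 6508 had an unadjusted p under 0.05, and the median log2 difference of all genes was -0.02. Most differences were small, and the large ones were mainly on the lower side: 37 genes were called and at least 2-fold higher (0.222%), and 301 at least 2-fold lower (1.8%). For 1496 genes (8.96%) all 3 bio rep 1 libraries lay above the other 6, and for 1248 (7.48%) below them. Fitted against each other with the same design, bio rep 1 and bio rep 2 differed in 3594 genes (21.5%) and bio rep 1 and bio rep 3 in 3822 (22.9%); these fits share the bio rep 1 libraries. Between bio rep 3 and bio rep 2, edgeR called 0 genes (0%), limma-voom 0 and DESeq2 0, with 468 genes at an unadjusted edgeR p under 0.05; without the bio rep 2 non-targeting library edgeR called 2.

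**Figure D2:**
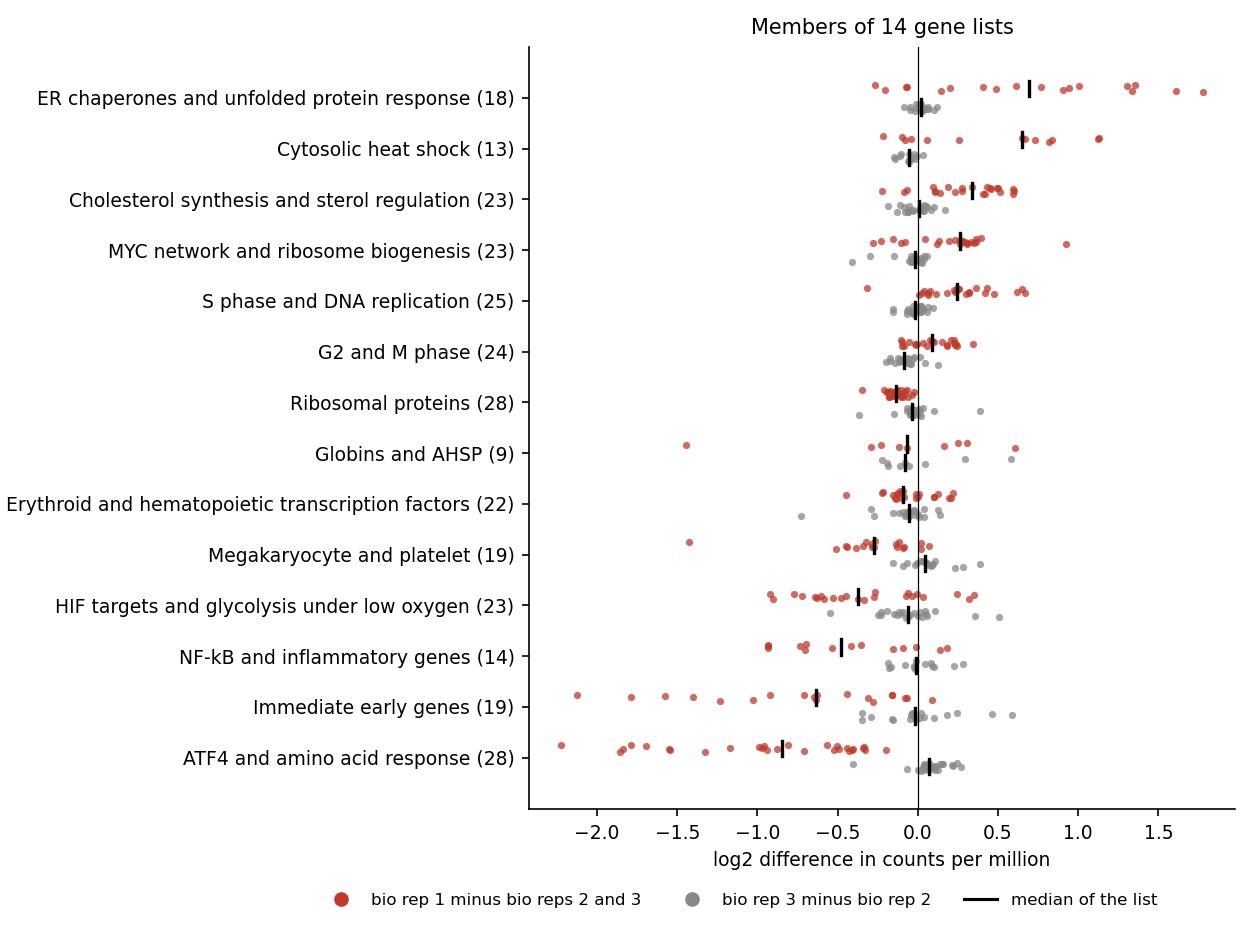
Log2 differences of the members of 14 gene lists (members tested in brackets), in red for bio rep 1 minus bio reps 2 and 3 and in grey for bio rep 3 minus bio rep 2, with list medians as black bars. The red medians run from -0.84 for amino acid response genes to 0.69 for ER chaperones, and the grey ones stay between -0.08 and 0.07.

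ER chaperones were 7 of the 12 largest rises among called genes with a mean of at least 5 CPM whose bio rep 1 library lay above both others in every siRNA group. Of 18 genes tested on the ER chaperone and unfolded protein response list, 13 were higher in bio rep 1 and 2 lower. The median log2 difference of the list was 0.69. Of all genes tested 15.1% were higher and 14.2% lower, and 34.3% were higher in the quartile with the highest mean level. For 12 list members (and 8.96% of all genes tested) all 3 bio rep 1 libraries lay above the other 6. The summed level of the list was 4637 to 5195 CPM in bio rep 1 and 2483 to 3163 in the other libraries. In bulk RNA, more transcript per cell and a larger number of cells that express it cannot be told apart. Promoter stretches are shown for list members with a match to an ERSE or an ERSE-II, except XBP1, whose stretch is not shown. Some members that were higher, such as MANF, PDIA4 and DNAJB11, have no such match. XBP1 and HERPUD1, which were not higher, have one. In the 250 bases before the start, an ERSE (CCAAT and CCACG with 9 bases between, either strand) stood in 5 of 17 list members with a RefSeq promoter (29.4%) and in 22 of 27305 promoters in all (0.0806%), and an ERSE-II (ATTGG and CCACG with 1 base between, either strand) in 3 of 17 (17.6%) and in 14 of all (0.0513%). The stretches below are RefSeq sequences of GRCh38.p14, while the counts were made on hg19; capitals mark the match, on either strand, and each line is written along the gene's own strand.
HSPA5: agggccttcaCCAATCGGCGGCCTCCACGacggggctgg
CALR: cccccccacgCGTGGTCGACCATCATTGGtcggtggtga
HSP90B1: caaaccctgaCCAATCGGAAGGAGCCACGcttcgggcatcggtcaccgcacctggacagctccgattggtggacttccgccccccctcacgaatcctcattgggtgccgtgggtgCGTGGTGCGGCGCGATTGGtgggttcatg
CRELD2: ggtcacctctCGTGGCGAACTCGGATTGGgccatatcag
SDF2L1: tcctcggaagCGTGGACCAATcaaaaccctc
HYOU1: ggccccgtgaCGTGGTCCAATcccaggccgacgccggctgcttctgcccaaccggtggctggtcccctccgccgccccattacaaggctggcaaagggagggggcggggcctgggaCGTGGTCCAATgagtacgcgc
HERPUD1: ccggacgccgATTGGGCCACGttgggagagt
The HSPA5 stretch is chr9:125241381-125241419, minus strand, that of CALR chr19:12938374-12938412, plus strand, that of HSP90B1 chr12:103930206-103930349, plus strand (with 2 ERSE matches) and that of CRELD2 chr22:49918544-49918582, plus strand. The ERSE-II stretches are chr22:21642104-21642134, plus strand, for SDF2L1, chr11:119057264-119057400, minus strand, for HYOU1 (2 matches), and chr16:56932015-56932045, plus strand, for HERPUD1. A match is a description of letters and does not show that a factor was bound.

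Among the chaperones themselves, HSPA5, the ER HSP70 also called BiP, was at 749, 746 and 567 CPM in bio rep 1 (non-targeting, pool 1, pool 2), at 261, 295 and 223 in bio rep 2 and at 225, 366 and 253 in bio rep 3. No bio rep 1 library came near the others, and the log2 difference was 1.35 ± 0.11 (SE; edgeR adjusted p = 0.0001). HYOU1, its nucleotide exchange factor, was at 528, 541 and 488 CPM against 242 to 303, a difference of 0.90 ± 0.05. Other chaperones of the ER lumen were high in the same 3 libraries. HSP90B1, the ER HSP90, was at 1170, 1160 and 1028 CPM in bio rep 1 against 468 to 673 in the other 6 libraries (1.01 ± 0.05). CALR, a lectin chaperone that folds glycoproteins, was at 732, 776 and 670 CPM against 228 to 347 (1.34 ± 0.07). Of the disulfide isomerases, PDIA4 was at 106, 142 and 118 CPM against 53 to 78.2 (0.94 ± 0.06).

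The largest differences of the list were those of SDF2L1 and CRELD2, both at low levels. SDF2L1, which works with the HSP40 proteins of the ER, was at 19.7, 18.8 and 12.8 CPM in bio rep 1, at 5.34, 5.66 and 3.58 in bio rep 2 and at 5.92, 4.34 and 4.96 in bio rep 3 (log2 difference 1.78 ± 0.13; edgeR adjusted p = 1.31e-12). CRELD2, an ER protein induced by misfolding, was at 12.4, 12.3 and 11.3 CPM against 3.27 to 4.99 (1.61 ± 0.15), and MANF, an ER protein that can be secreted, at 66.6, 69.3 and 57.8 against 21.4 to 31.0 (1.31 ± 0.07). For these 8 genes a test of whether the difference varied between siRNA groups did not pass, with adjusted p from 0.304 to 0.99. The regulator and the degradation genes of the same list were mixed, with SEL1L higher (0.20 ± 0.06; adjusted p = 0.0121). XBP1, the transcription factor whose promoter also holds an ERSE, had 131, 135 and 154 CPM in bio rep 1 and 137 to 153 in the others (-0.07 ± 0.05; adjusted p = 0.344). HERPUD1 is an ER membrane protein of the degradation pathway whose promoter has a match to ERSE-II and also to CARE. It was lower, at 34.1, 28.8 and 41.5 CPM against 37.9 to 45.1 (-0.27 ± 0.09, edgeR adjusted p = 0.0151). So was EDEM1, which hands misfolded glycoproteins to degradation (-0.20 ± 0.06, edgeR adjusted p = 0.00473). The libraries of these last 2 genes overlap.

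**Figure D3:**
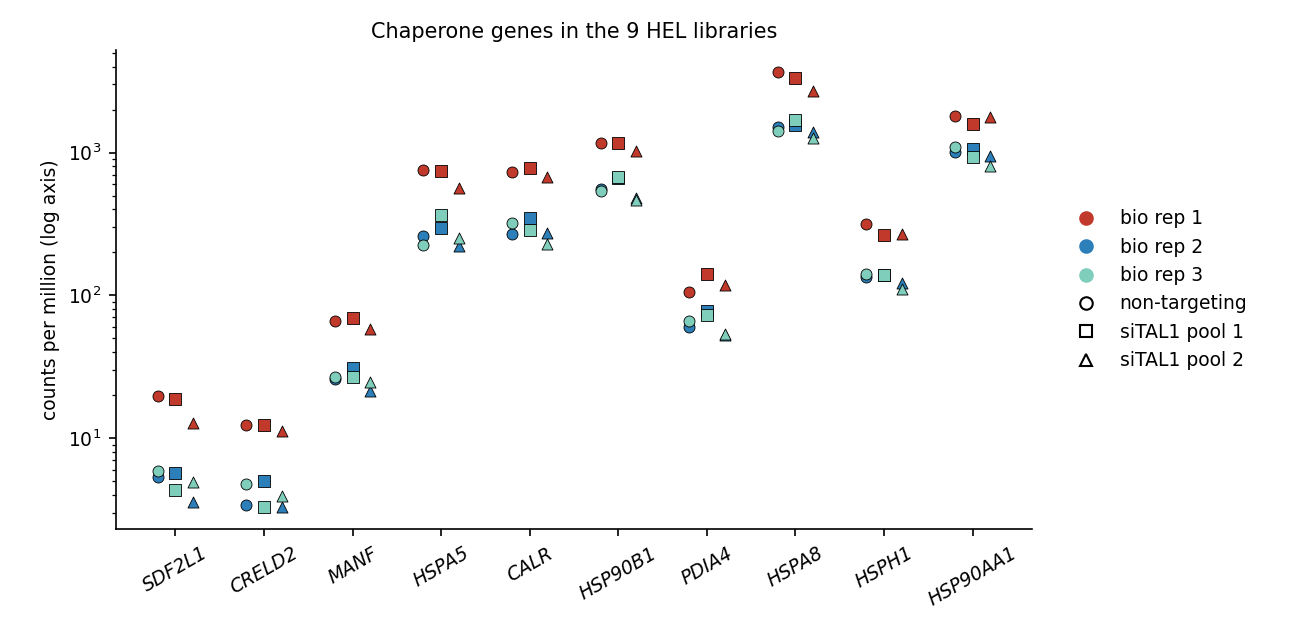
CPM (log axis) of 10 chaperone genes in the 9 HEL libraries, coloured by bio rep and shaped by siRNA group. In all 10 genes the 3 bio rep 1 libraries lie above the other 6, as for HSPA5 at 567 to 749 against 223 to 366 CPM.

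Chaperones of the cytosol and of mitochondria were higher as well. On the cytosolic heat shock list, 8 of 13 genes tested were higher and 1 lower, against 15.1% and 14.2% of all genes. The median was 0.65, and for the 8 higher genes all 3 bio rep 1 libraries lay above the other 6. HSPA8, the constitutive HSP70, was at 3654, 3351 and 2684 CPM in bio rep 1, at 1504, 1556 and 1397 in bio rep 2 and at 1405, 1701 and 1259 in bio rep 3 (log2 difference 1.13 ± 0.05; edgeR adjusted p = 2.68e-16). HSPH1, the nucleotide exchange factor of HSP70, was at 317, 266 and 269 CPM against 111 to 140 (1.12 ± 0.05). Their co-chaperone DNAJA1 was at 225, 222 and 221 CPM against 128 to 146 (0.73 ± 0.05). In mitochondria, HSPD1 and HSPE1, which form the folding chamber of the matrix, had differences of 0.65 ± 0.05 and 0.84 ± 0.12. Of the remaining members, DNAJB1 (0.06 ± 0.06, adjusted p = 0.52), DNAJB4 (-0.10 ± 0.10, adjusted p = 0.525), BAG3 (-0.04 ± 0.10, adjusted p = 0.811) and the collagen chaperone SERPINH1 (-0.08 ± 0.06, adjusted p = 0.359) did not pass, and HSPB1 was lower (-0.22 ± 0.08; adjusted p = 0.0495). HSPA1A and HSPA1B, near-identical copies, did not pass the filter on low counts. HSPA8, HSPD1, HSPE1 and HSP90AA1 have many processed copies in the genome that could take some of their reads. An HSE (GAA, TTC and GAA with 2 bases between each, either strand) stood in 3 of 13 promoters of the list (23.1%) and in 120 of all 27305 (0.439%), and the 2 shown are from members that were higher, with capitals on the matches.
HSPA8: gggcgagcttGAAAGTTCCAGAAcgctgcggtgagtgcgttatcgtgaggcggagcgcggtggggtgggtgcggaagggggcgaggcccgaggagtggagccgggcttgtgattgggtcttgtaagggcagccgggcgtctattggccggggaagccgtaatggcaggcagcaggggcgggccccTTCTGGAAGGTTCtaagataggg
CHORDC1: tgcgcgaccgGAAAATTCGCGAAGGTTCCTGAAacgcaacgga
The HSPA8 stretch is chr11:123062169-123062376, minus strand, and that of CHORDC1, an HSP90 co-chaperone, is chr11:90223077-90223119, minus strand. CHORDC1 had a log2 difference of 0.67 ± 0.06, and the third gene with a match, SERPINH1, is the one given above as not passing.

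Opposite to the chaperones, the targets of ATF4 were low in bio rep 1. Of 28 genes tested on the ATF4 and amino acid response list, 26 were lower, against 14.2% of all genes tested. All 28 estimates were below 0 and the median was -0.84. For 18 members (and 7.48% of all genes tested) all 3 bio rep 1 libraries lay below the other 6. ATF4 mRNA itself was at 451, 430 and 564 CPM in bio rep 1, at 607, 593 and 643 in bio rep 3 and at up to 630 in bio rep 2 (-0.34 ± 0.05; edgeR adjusted p = 1.76e-06). The bio rep 1 pool 2 library lies just above the lowest library of bio rep 2. Many targets had larger estimates than ATF4 mRNA, while TRIB3 (-0.33 ± 0.08), SLC38A2 (-0.33 ± 0.13, adjusted p = 0.103) and SLC7A1 (-0.20 ± 0.05) did not. A CARE (TGATGNAA, either strand) stood in 3 of 24 list promoters (12.5%) and in 870 of all 27305 (3.19%), and these 3 are shown with the match in capitals.
ASNS: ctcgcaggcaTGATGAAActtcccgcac
CHAC1: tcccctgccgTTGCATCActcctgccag
ATF3: aaggtcaggaTGATGGAAggctgtcata
The ASNS stretch is chr7:97872459-97872486, minus strand, that of CHAC1 chr15:40953252-40953279, plus strand and that of ATF3 chr1:212565206-212565233, plus strand.

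Stress effectors of the ATF4 list differed from -2.22 for DDIT4 to -0.33 for TRIB3. DDIT4, an inhibitor of mTORC1, was at 13.9, 10.7 and 40.6 CPM in bio rep 1, at 107, 57.7 and 105 in bio rep 2 and at 117, 55.9 and 125 in bio rep 3. All 3 bio rep 1 libraries were below the other 6, with a log2 difference of -2.22 ± 0.31 (SE; edgeR adjusted p = 0.00421), and the call ended when bio rep 2 or bio rep 3 was left out whole (adjusted p = 0.0983 and 0.116). CHAC1, which breaks down glutathione, was at 7.21, 9.27 and 28.4 CPM against 33.3 to 70.3 (-1.84 ± 0.32; adjusted p = 0.00998, and 0.169 without bio rep 3). ATF3, a transcription factor of the same response, was at 4.17, 3.36 and 9.34 CPM against 15 to 23.8 (-1.79 ± 0.23). DDIT3, the pro-death factor CHOP that the unfolded protein response also raises, was at 9.65, 9.85 and 10.9 CPM against 14.8 to 19.9 (-0.71 ± 0.10; adjusted p = 3.06e-06). So DDIT3 lay on the side of the ATF4 targets and not on that of the ER chaperones.

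Enzymes of amino acid synthesis and of related mitochondrial steps had differences of like size. ASNS, asparagine synthetase, was at 40.0, 37.4 and 68.4 CPM in bio rep 1, at 147, 106 and 157 in bio rep 2 and at 133, 133 and 160 in bio rep 3 (-1.55 ± 0.12; edgeR adjusted p = 5.33e-06). In the serine pathway, PHGDH, its first enzyme, was at 94.3, 108 and 137 CPM against 223 to 368 (-1.33 ± 0.07), PSAT1 at 104, 59.5 and 170 against 159 to 290 (-1.17 ± 0.16), and PSPH had a difference of -0.51 ± 0.08. PHGDH separated completely, while for PSAT1 the bio rep 1 pool 2 library overlaps the pool 1 libraries of bio reps 2 and 3. CBS, which joins homocysteine and serine on the way to cysteine, was at 38.6, 37.5 and 40.7 CPM against 108 to 175 (-1.85 ± 0.13). The mitochondrial enzymes PCK2 (phosphoenolpyruvate carboxykinase; 20.5, 19.3 and 34.8 CPM against 57.8 to 83.5) and ALDH1L2 (folate oxidation; 4.73, 3.94 and 6.87 against 14.6 to 19.9) had differences of -1.55 ± 0.08 and -1.70 ± 0.14. Not all enzymes that use serine or one-carbon units were low. On the list of serine, one-carbon and nucleotide enzymes 6 of 18 tested were lower and 8 higher: the 6 were PHGDH, PSAT1, PSPH, SHMT2, MTHFD2 and MTHFD1L, and the 8 included the nucleotide enzymes UMPS (0.44 ± 0.06), IMPDH1 (0.41 ± 0.06) and CAD (0.31 ± 0.05). Without the bio rep 1 pool 2 library, or without bio rep 2, 5 were higher. Of all genes tested 14.2% were lower and 15.1% higher.

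**Figure D4:**
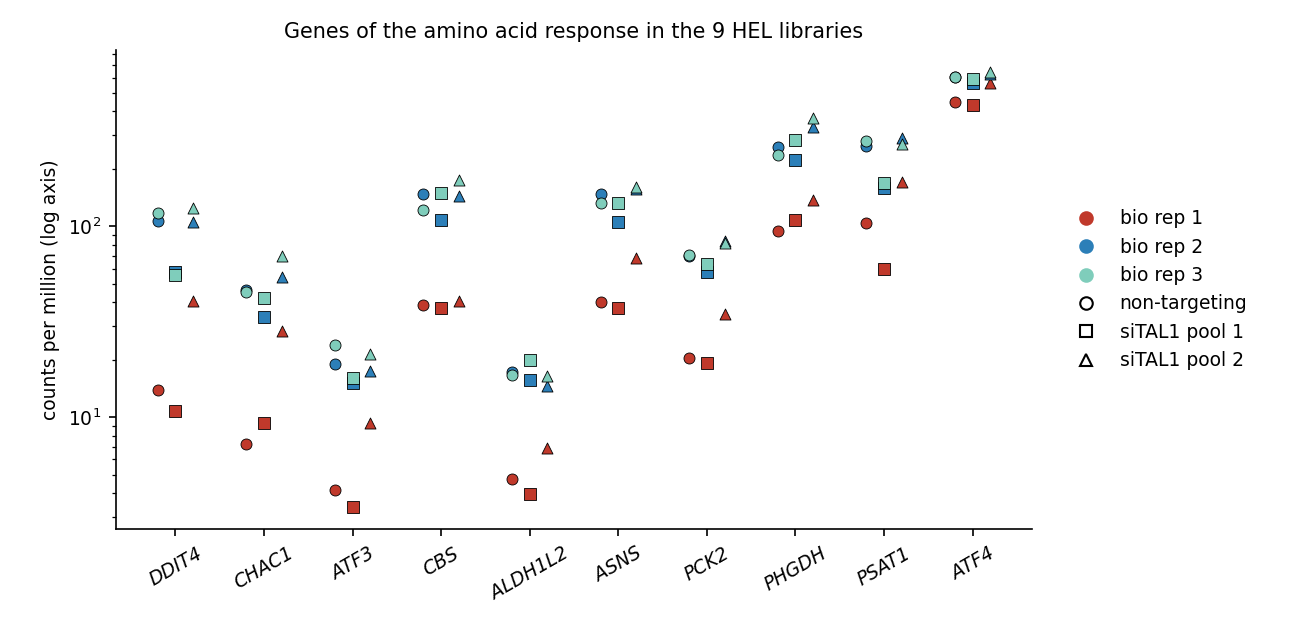
CPM (log axis) of 10 genes of the amino acid response in the 9 HEL libraries, coloured by bio rep and shaped by siRNA group. Bio rep 1 lies lowest within each siRNA group for every gene plotted, as for ASNS at 37.4 to 68.4 against 106 to 160 CPM, and its pool 2 library is the highest of the 3 bio rep 1 libraries for all of them.

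The size of this deficit differed between siRNA groups. In the non-targeting, pool 1 and pool 2 groups the median log2 difference of the 28 members was -0.99, -0.97 and -0.48. A test of the interaction of bio rep 1 with the siRNA group called 25 genes (0.15%; 1531 at an unadjusted p under 0.05), of which 8 are on the ATF4 list: DDIT4, PSAT1, SLC38A2, CHAC1, SLC7A11, SESN2, CARS and ATF3. DDIT4 differed by -3.02, -2.41 and -1.50 in the 3 groups (edgeR adjusted p of the interaction = 8.53e-07) and CHAC1 by -2.67, -2.03 and -1.13 (0.000725). SLC7A11, the cystine importer, was at 29.9, 27.3 and 65.7 CPM in bio rep 1 and at 62.7 to 80.4 in the other 6 libraries. It was low in bio rep 1 without TAL1 siRNA and with pool 1 and overlapped the rest with pool 2 (-1.23, -1.40 and -0.16). SLC38A2, a glutamine and alanine importer, had differences of -0.54, -0.55 and 0.07. Each of these group values rests on 1 bio rep 1 library, so the siRNA pool and that library cannot be told apart. Other members kept a like difference in all groups, such as CBS at -1.81, -1.78 and -1.97 (adjusted p of the interaction = 0.977) and PHGDH at -1.40, -1.23 and -1.35 (0.909).

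**Figure D5:**
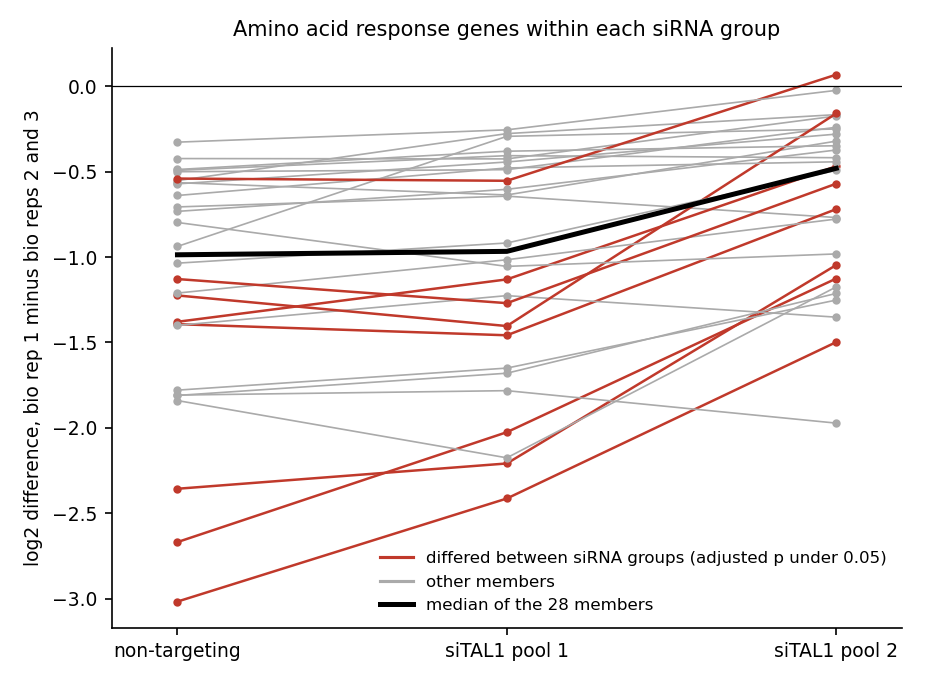
Log2 difference of bio rep 1 from bio reps 2 and 3 within each siRNA group (x axis) for the 28 tested members of the ATF4 list. The 8 red lines passed the interaction test, and the median (black) is -0.99, -0.97 and -0.48.

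Many immediate early and NF-kB genes were lower in bio rep 1, and genes of signalling feedback in part. On the immediate early list 11 of 19 genes tested were lower, with a median of -0.64. Of all genes tested 14.2% were lower and 15.1% higher. In 10 members of the list all 3 bio rep 1 libraries lay below the other 6. EGR1, a zinc finger factor set by ERK signalling, was at 91.7, 73.6 and 95.6 CPM in bio rep 1, at 274, 234 and 181 in bio rep 2 and at 261, 213 and 220 in bio rep 3 (-1.40 ± 0.11; edgeR adjusted p = 1.02e-05). Its relative EGR3 was at 13, 6.22 and 10.8 CPM against 24.6 to 56.3 (-2.12 ± 0.31; adjusted p = 0.00499, and 0.144 without bio rep 3). JUNB, an AP-1 subunit, was at 73.7, 62.1 and 64.9 CPM against 121 to 155 (-1.03 ± 0.06). FOS and JUN themselves did not pass, at -0.16 ± 0.13 (adjusted p = 0.398) and -0.31 ± 0.12 (adjusted p = 0.0526). On the NF-kB and inflammatory list 9 of 14 were lower (median -0.48), among them the NF-kB subunit NFKB2 (20, 23.4 and 23.6 CPM against 34.6 to 40.7; -0.74 ± 0.08) and the cytokine IL1B (143, 116 and 192 against 210 to 268; -0.70 ± 0.07). The JAK-STAT list had 8 of 14 lower and 1 higher (median -0.21), with the feedback inhibitor SOCS3 at 29.1, 31.2 and 26.4 CPM against 41.5 to 52.2 (-0.71 ± 0.09) and the kinase PIM1 at 696, 732 and 719 against 875 to 1063 (-0.46 ± 0.05). Without the bio rep 1 non-targeting or the bio rep 1 pool 2 library, 5 of the JAK-STAT genes were lower. Of 11 ERK feedback genes 4 were lower, namely DUSP5 (-0.63 ± 0.08), ETV4 (-0.58 ± 0.09), SPRY2 (-0.41 ± 0.09) and ETV5 (-0.23 ± 0.07), and SPRED1 was higher (0.40 ± 0.07); the list's median was -0.23.

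p53 targets and BCL2 family genes moved in part. BTG2, an antiproliferative gene that p53 and growth signals both induce, was at 170, 183 and 196 CPM in bio rep 1, at 365, 442 and 342 in bio rep 2 and at 419, 434 and 394 in bio rep 3, with no overlap (-1.12 ± 0.06; edgeR adjusted p = 7.46e-13). The pro-death BH3 gene BBC3 was at 4.96, 4.93 and 8.10 CPM against 9.02 to 19.2 (-1.18 ± 0.13). The survival gene MCL1 was also lower, at 531, 432 and 525 CPM against 684 to 828 (-0.57 ± 0.05). In counts, 6 of 17 p53 targets were lower and 1 higher (median -0.17), and 6 of 14 BCL2 family genes were lower and 3 higher, against 14.2% lower and 15.1% higher of all genes tested.

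Targets of HIF were lower in part. Of 23 HIF targets tested, 13 were lower and 1 higher, against 14.2% and 15.1% of all genes tested. The median of the list was -0.38. VEGFA, the angiogenic ligand, was at 66.6, 59.4 and 96.4 CPM in bio rep 1, at 129, 114 and 130 in bio rep 2 and at 129, 110 and 139 in bio rep 3 (-0.77 ± 0.07; edgeR adjusted p = 4.58e-10). PDK1, which holds pyruvate back from mitochondria, was at 101, 93.9 and 104 CPM against 132 to 159 (-0.53 ± 0.06). The mitophagy receptor BNIP3L was at 112, 122 and 117 CPM against 159 to 167 (-0.48 ± 0.05), a narrow and complete separation. Glucose uptake and glycolysis genes were mixed. ALDOC (-0.73 ± 0.13) and SLC2A3 (-0.27 ± 0.05) were lower and the regulator PFKFB3 higher (0.24 ± 0.06). Those that did not pass were SLC2A1 (-0.07 ± 0.05, adjusted p = 0.341), HK2 (-0.003 ± 0.05, adjusted p = 0.97), PGK1 (-0.06 ± 0.05, adjusted p = 0.387) and LDHA (0.35 ± 0.11, adjusted p = 0.0541).

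Transcripts of many sterol synthesis genes were higher. On the cholesterol list 14 of 23 genes tested were higher in bio rep 1 and 1 lower, with a median of 0.34, and 9 were higher without the bio rep 1 pool 2 library. The median was 0.14, 0.34 and 0.59 in the non-targeting, pool 1 and pool 2 groups, each with 1 bio rep 1 library, and no member is among the 25 genes of the interaction. SQLE, which makes the squalene epoxide of the sterol pathway, was at 336, 334 and 381 CPM in bio rep 1, at 274, 291 and 261 in bio rep 2 and at 310, 287 and 246 in bio rep 3 (0.34 ± 0.06; edgeR adjusted p = 6.05e-05), so the 3 libraries stood above the rest. HMGCS1, an early enzyme of the mevalonate pathway, was at 92.5, 70.2 and 101 CPM against 49 to 74.8 (0.59 ± 0.08), with the bio rep 1 pool 1 library inside the range of the others. The 1 lower gene was SREBF2, which encodes SREBP2 itself (-0.23 ± 0.05; adjusted p = 0.000578). An SRE (TCACNCCAC, either strand) stood in 1 of 18 promoters of the list (5.56%), that of SREBF2, and in 239 of all (0.875%). Of 12 fatty acid genes, 4 were higher, among them FASN (0.34 ± 0.05) and ACACA (0.31 ± 0.05), and 1 lower, the regulator SREBF1 (-0.29 ± 0.06). Of all genes tested 15.1% were higher and 14.2% lower, and 34.3% were higher in the quartile with the highest mean level.

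Nucleolar and replication genes were higher by small amounts, while ribosomal proteins were lower. Of 23 genes of the MYC network and ribosome biogenesis, 15 were higher and 2 lower (median 0.27). UTP20, a component of the small subunit processome, was at 132, 114 and 134 CPM in bio rep 1, at 64.5, 57.1 and 76.8 in bio rep 2 and at 80.5, 56.1 and 67.4 in bio rep 3 (0.92 ± 0.06; edgeR adjusted p = 4.51e-13). NOP56, a core protein of box C/D particles, was at 358, 348 and 324 CPM against 256 to 289 (0.35 ± 0.05). MYC itself was at 589, 546 and 532 CPM against 527 to 687 and did not pass (-0.08 ± 0.05, adjusted p = 0.223). In S phase, 16 of 25 genes were higher and 1 lower (median 0.25), among them the flap endonuclease FEN1 (111, 91.6 and 87.6 CPM against 45.6 to 74.5; 0.67 ± 0.07), the licensing factor CDC6 (125, 109 and 105 against 58.3 to 94.9; 0.65 ± 0.07) and the clamp PCNA (0.48 ± 0.06). In G2 and M phase, 9 of 24 were higher (median 0.09), and 5 without the bio rep 1 pool 2 library. CCNB1 led, at 150, 140 and 150 CPM against 107 to 126 (0.35 ± 0.05). Of all genes tested 15.1% were higher, and 34.3% of the quartile with the highest mean level. The G2 and M count is near the share of that quartile.

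Of 28 ribosomal protein and elongation factor genes, 18 were lower and all 28 estimates were below 0, with a median of only -0.14. Their summed level was 40450 to 42460 CPM in bio rep 1 and 44470 to 47460 in the other 6 libraries, with no overlap. The count of lower genes was 8 without the bio rep 1 non-targeting library and 4 without bio rep 2. EEF2, the elongation factor of translocation, had the clearest difference, at 1534, 1647 and 1695 CPM against 1920 to 2333 (-0.35 ± 0.04; edgeR adjusted p = 2.15e-07). These genes have many near-identical processed copies, so their counts are uncertain. Of 15 genes encoded in mitochondrial DNA, 2 were lower, MT-RNR2 (-0.30 ± 0.04) and MT-CO1 (-0.24 ± 0.04), and 2 higher, MT-CYB (0.22 ± 0.04) and MT-ATP6 (0.15 ± 0.04), shares near the 14.2% and 15.1% of all genes.

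Among lineage lists, platelet genes were lower. Of 19 megakaryocyte and platelet genes, 8 were lower (median -0.28): ITGA2B was at 813, 972 and 779 CPM in bio rep 1 against 1049 to 1185 (-0.39 ± 0.05; edgeR adjusted p = 3.26e-07), and ITGB3, its partner chain in the platelet fibrinogen receptor, at 127, 128 and 122 against 141 to 171 (-0.33 ± 0.05). HBB, the adult beta globin, was at 5.33, 5.19 and 3.75 CPM in bio rep 1, at 14.9, 10.2 and 10 in bio rep 2 and at 14, 14.4 and 14.3 in bio rep 3, with no overlap (-1.45 ± 0.15; adjusted p = 3.26e-09). Fetal HBG2 did not pass (-0.07 ± 0.10, edgeR adjusted p = 0.665). HBG1 and HBG2 are near-identical copies. Of 9 globin genes tested, HBB was the 1 lower and HBA2 the 1 higher, against 14.2% and 15.1% of all genes tested. HBA2 lost the call in 7 alternatives, among them DESeq2's Wald test (adjusted p = 0.143). Of 22 erythroid and hematopoietic transcription factors, 2 were higher and 3 lower, no larger a share than the 15.1% and 14.2% of all genes, with GATA2 among the lower (-0.22 ± 0.05; adjusted p = 0.0011). GATA1 and KLF1 did not pass, at -0.09 ± 0.07 (adjusted p = 0.354) and 0.10 ± 0.08 (adjusted p = 0.366). Of 21 erythroid membrane genes 3 were higher and 6 lower, against 15.1% and 14.2% of all genes tested. Of 14 heme synthesis genes 5 were lower, led by the mitochondrial iron importer SLC25A37 (-0.44 ± 0.05). Among these 5, ALAS2 lost the call in 10 alternatives and ABCB10 in 9. Both lost it without the bio rep 1 non-targeting library (edgeR adjusted p = 0.378 and 0.25) and without bio rep 2 (0.149 and 0.457).

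Some markers of other cell types were present in all libraries. Mast cell and basophil markers had a summed level of 2389 to 3134 CPM in bio rep 1 and 2438 to 3306 in the others (11 of 12 passed the filter on low counts), of which GATA2 is also on the erythroid factor list; HDC, which makes histamine, was at 728 to 1152 CPM over the 9 libraries and FCER1A, a chain of the IgE receptor, at 576 to 869. Of these 11, 4 were lower in bio rep 1, against 14.2% of all genes tested. Among them CPA3, a mast cell protease, was at 13, 42.3 and 22.8 CPM against 19.3 to 62.5 (-0.51 ± 0.09, edgeR adjusted p = 2.55e-05). Monocyte and granulocyte markers summed to 277 to 360 CPM and 292 to 413 (13 of 21 passed the filter). Of these 13, 2 were lower, a share near the 14.2% of all genes tested. The summed level of the tested lymphoid markers was 58.7 to 85.3 CPM in bio rep 1 and 64.5 to 90.5 in the others (6 of 13 passed the filter), that of fibroblast markers 127 to 160 and 114 to 144 (7 of 14), and that of epithelial markers 21.1 to 28.5 and 24.5 to 35.9 (4 of 10). Among the last 3 lists the called genes were CD4 and GNLY, lower, THY1, higher (0.42 ± 0.06), and KRT8, lower. GNLY lost the call in 12 alternatives, among them limma-voom (adjusted p = 0.052). CD4 lost it without bio rep 2 (edgeR adjusted p = 0.0631) and KRT8 without the bio rep 1 pool 2 library (0.0917). MS4A1, DCN, LUM, POSTN, KRT5, KRT14 and ELANE had no count in any of the 9 libraries. The part of these markers in the differences was not tested.

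Outside these lists, the 12 largest rises by the naming rule held FAM111B, a protease gene, and SLC27A4, a fatty acid transporter. FAM111B was at 30.2, 23.5 and 22.8 CPM in bio rep 1, at 13.1, 13.2 and 11.9 in bio rep 2 and at 16.4, 11.9 and 11.4 in bio rep 3 (0.97 ± 0.09; edgeR adjusted p = 1.46e-09), and SLC27A4 at 18.1, 16.1 and 15.2 against 6.85 to 11.5 (0.94 ± 0.12). The 12 largest falls held CHRM3-AS2, YPEL3 and SYTL1. CHRM3-AS2, a noncoding gene antisense to the receptor gene CHRM3, was at 15.3, 18.6 and 21.8 CPM against 52.7 to 70.2 (-1.69 ± 0.09; adjusted p = 3.28e-15); the sources used here do not state whether the counting used strand, so reads of CHRM3 cannot be told apart from it. YPEL3 had 2.67, 5.42 and 3.91 CPM against 6.52 to 17.0 (-1.40 ± 0.17). SYTL1, a RAB27 effector of vesicle transport, had 2.55, 4.03 and 11.2 CPM against 8.53 to 27.3 (-1.43 ± 0.18), with overlap across the siRNA groups but none within them.

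The shares of genes called higher and lower varied with gene type and with level. Type and level were not separated from each other. Among 12575 protein-coding genes 19.5% were higher and 15.4% lower in bio rep 1, while among 652 long intergenic noncoding genes 1.07% were higher and 16.7% lower (median -0.23), and among 1022 antisense genes 1.37% and 10.7%. Nuclear noncoding RNA took part: NEAT1, the scaffold of paraspeckles, was at 190, 237 and 219 CPM in bio rep 1 against 319 to 396 (-0.72 ± 0.06; edgeR adjusted p = 5.36e-10), and MALAT1, of nuclear speckles, at 84.9, 103 and 111 against 132 to 147 (-0.50 ± 0.06). Both were below the others in all 3 bio rep 1 libraries. Of the 4 small nucleolar RNA hosts on the list, 2 were higher, with SNHG12 at 101, 93.2 and 79.3 CPM against 49.7 to 60.4 (0.70 ± 0.07) and SNHG1 at 324, 262 and 278 against 192 to 259 (0.32 ± 0.05), while SNHG5 (-0.10 ± 0.04, adjusted p = 0.0804) and GAS5 (-0.11 ± 0.04, adjusted p = 0.0535) did not pass. By mean level, 0.863% of the lowest quartile of genes were higher and 5.7% lower, against 34.3% and 17.1% of the highest quartile. The part of RNA quality or library preparation in these differences was not tested.

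In the other contrast of the same 9 libraries, the siTAL1 pools against non-targeting without a term for bio rep, 338 genes passed (2.03%), 201 higher and 137 lower (1.2% and 0.821%), and TAL1 had a log2 difference of -1.34 ± 0.07 (edgeR adjusted p = 6.31e-07). The count of 338 moved to between 104 and 570 when 1 library was left out, and to 2628 with a term for bio rep 1 against the rest.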

How the data were processed

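The deposited HEL table holds whole-number counts of reads per gene for 9 libraries. Per the submitters' processing notes, FastQC, STAR, featureCounts and hg19 were used by the authors; versions, annotation and strand setting are not given in the sources used here. Columns were matched to samples by the library names in the labels. Genes passing edgeR's filterByExpr were tested with edgeR 4.0.16 (TMM, glmQLFit, glmQLFTest; R 4.3.3) with the terms siRNA group and bio rep 1 against the rest, and Benjamini-Hochberg adjustment at 0.05. SE is the log2 difference divided by the square root of F. Bio rep 3 against 2 used bio rep in 3 levels, the interaction used the siRNA group by bio rep 1, and siTAL1 against non-targeting used no bio rep term. On counts simulated for the tested genes, with changes of at least 2-fold, the script recovered most of the changed genes. Smaller changes, which most called genes had, were not simulated. Totals per library ran from 15869619 to 27029836 counts; intervals cover the spread between these libraries only. Replicates of a group differed by more than sampling noise (chi-square per degree of freedom of 4.39 to 31). Gene types and lengths came from GENCODE v29, matched for 16211 of 16688 genes. K562 libraries were not used here. Alternatives were other scalings and filters, limma-voom 3.58.1, DESeq2 1.42.0, no siRNA term, left-out libraries, thinning and protein-coding genes only; the last 2 and another scaling of the interaction were chosen after seeing the data.

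The choice of bio rep 1 and the 44 gene lists were made with earlier results of these data known. The text names TAL1, the 12 genes highest and the 12 lowest in bio rep 1 by log2 difference (called, mean of at least 5 CPM, bio rep 1 beyond both other libraries in every siRNA group), and up to 4 members per list; it names other members of the lists (such as ATF4, XBP1, HERPUD1, DDIT3, FOS, MYC, HK2 and SREBF2) and the genes of the interaction after their values were seen. Some genes that the rule names are not reported here.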

Additional observations from a re-analysis of the deposited data

Results flagged for a closer look

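The difference of bio rep 1 from bio reps 2 and 3 varied between siRNA groups in 25 genes by edgeR's interaction test, named here after their values were seen; each group has 1 bio rep 1 library. Leaving out the bio rep 2 non-targeting library gave 39 genes, the bio rep 2 pool 1 library 48 and the bio rep 3 non-targeting library 47.

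In 1 set the deficit of bio rep 1 was smaller with siTAL1 pool 2 than in the other groups. It held the ATF4 list members DDIT4 (adjusted p = 8.53e-07), PSAT1 (0.000307), SLC38A2 (0.000674), CHAC1 and SLC7A11 (0.000725 each), SESN2 and CARS (0.0178 each) and ATF3 (0.0378). It also held GARS, a glycine tRNA synthetase (0.0178), SLC38A1, a glutamine importer (0.00799), the lymphocyte activation antigen CD69, the chloride channel protein CLIC4 and the BH3 gene PMAIP1 (0.000674 each), and the sterol exporter ABCG1 (0.00964). CLIC4 was at 201, 242 and 328 CPM in bio rep 1 (non-targeting, pool 1, pool 2) and at 385 to 496 in the other 6 libraries. SCD, a fatty acid desaturase (0.00249), DUSP6, an ERK phosphatase (0.000674), and MMRN1, a platelet protein (0.0261), were above the other libraries of their group with pool 2 (log2 differences 0.35, 0.23 and 0.46) and below them with pool 1 (-0.29, -0.69 and -0.29).

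Other genes had a single library or group apart. RN7SL2 (4.6e-11), an RNA of the signal recognition particle with near-identical copies, was at 118 and 136 CPM in the pool 2 libraries of bio reps 2 and 3 and at 22.2 to 37.4 in the other 7 libraries. RPS9 (1.11e-05) was at 117 CPM in bio rep 1 and at 261 and 255 in bio reps 2 and 3 with non-targeting siRNA, and at 52.6 to 68.3 with both siTAL1 pools. GUSBP3 (0.000674), a pseudogene, was at 0.188 CPM in the bio rep 1 non-targeting library and at 2.33 to 4.2 in the rest. SF3B4 (0.00249), EMG1 (0.00661), DRAP1 and CYBA (0.0106 each) and TSEN34 (0.0225) changed sign between siRNA groups, with log2 differences for SF3B4 of 0.60, -0.72 and -0.11.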

How the results depend on the processing

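The 4896 genes called between bio rep 1 and bio reps 2 and 3 became 3137 without bio rep 2, 1939 with no siRNA group term, and 3380 to 4725 when 1 library was left out; in the other alternatives the count stayed within 1.5 times, from 3870 to 4959. Of the values of named genes under the alternatives, 4120 kept their side of the threshold and direction, 191 lost the call, 46 gained it and 0 turned. With upper-quartile scaling 2103 genes were higher and 2824 lower. Between bio rep 3 and bio rep 2, leaving out 1 library gave 0 to 2 genes, and the other alternatives 0. The 25 genes of the interaction became 21 to 48 without 1 library; leaving out a bio rep 1 library leaves its group with none, so that fit was not run. The 338 genes of siTAL1 against non-targeting became 716 with no low-count filter, 789 by DESeq2's Wald test and 104 to 570 without 1 library; the cause was not tested. Same-numbered libraries shared deviations with r from 0.087 to 0.363 over 9 pairs, and the highest r of other pairs was 0.207. By this measure 6 of 9 libraries correlated best with their own number. Bio rep 1 stood apart, with r of 0.322, 0.363 and 0.317 within it and -0.264 to -0.154 with the other numbers. Within bio rep 2 (0.087 to 0.123) and bio rep 3 (0.094 to 0.159), r was no higher than in some pairs between them. Deviations were taken from the mean of each siRNA group, bio rep 1 included, so the bio rep 1 difference enters every r. These r therefore cannot decide whether the numbers 2 and 3 pair the samples, and the main fit does not pair by them. With bio rep as a replicate block 2437 genes were called, and 2628 with the replicate block in 2 levels (bio rep 1 or not). In the lowest quartile by level, 0.863% of genes were called higher and 5.7% lower, and the part of depth in these shares was not tested.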
